A study of Mus musculus with 12 samples.

Results

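The comparison described here is that of RNA pulled down on tagged ribosomes (IP) with input RNA, in dorsal root ganglia (DRG) of mice without nerve injury. Its members were taken from the labels and comprise 3 uninjured IP samples and 3 uninjured input samples, 6 of the 12 samples of the series. All transcripts entered, and 30666 of the 101744 listed transcript IDs had a count in at least 1 of the 6. The other 6 samples came from injured ganglia, split in the same way into 3 IP and 3 input samples. All mice, with and without injury, carried the genotype RPL22HA+/+;Advillin-Cre+, and both uninjured groups bore the treatment label Uninjury. A pulldown from mice without Cre was not analysed here. The labels call the RNA of both fractions total RNA, and the extraction text attached to the input describes the pulldown as well, so how the input RNA was prepared is not clear. The sources used here do not give strain, age, the number of mice or whether mice were pooled.

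RiboTag is a way to collect the RNA that one cell type is translating inside a mixed tissue. Cre recombinase switches a large-subunit ribosomal protein to a form that carries an HA tag, and an anti-HA antibody then pulls tagged ribosomes, with their mRNA, out of the tissue lysate. Advillin-Cre limits the switch largely to peripheral sensory neurons. In a DRG these neurons lie among satellite glia, Schwann cells, fibroblasts, vessel cells and immune cells, which the driver is not meant to tag, while the input holds RNA of all of them. The ratio of IP to input of a transcript is therefore the usual measure of its pulldown enrichment.

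The deposited table gives 1 estimated count per transcript and sample from nanopore cDNA reads. It identifies transcripts by Ensembl IDs alone, and 0 of these matched the gene tables used here. Neuronal, glial and other cell type markers were therefore not analysed here, no gene is named, and whether the pulldown recovered sensory neuron RNA was not tested. Isoforms of a gene are separate entries, and a sum over them was not made. No transcript sequence was used here.

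The IP was sequenced less deeply than the input. The IP samples held 211497 to 212449 estimated counts, with 12854 to 12955 transcripts detected in each. The input samples held 1685126 to 1685756 counts, with 19829 to 19918 transcripts. Totals within a group thus spanned 0.449% of their mean in IP and 0.0374% in input. Among transcripts with at least 300 counts in each sample, the median chi-square statistic between the 3 samples was 1.27 times that of counting noise in IP (38 transcripts) and 1.30 times in input (711). The 3 samples of a group were for this reason summed and counted as 1 sample. A minority of transcripts spread beyond counting noise, with a chi-square p under 0.01 in 10.6% of 3018 IP and 13.5% of 8008 input transcripts with a mean of at least 10 counts. Taken as replicates, the samples had a common biological coefficient of variation of 25.3% in edgeR. Whether they are 1 library was not settled. Ratios below have no replicate check, and their 95% intervals, taken on summed counts, cover counting error only. Amplified reads that carry no molecular identifier cannot be counted as independent molecules, so the intervals may be too narrow even for that error.

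A transcript was compared where the group with the higher level reached 10 CPM, counts per 1000000 scaled counts. It was called higher or lower in IP at a difference of 2-fold or more, where the 95% interval for counting error lay wholly on one side of 1 and the 3 IP samples did not overlap the 3 input samples. Levels were scaled in 2 ways. Library totals compare shares of all counts, and TMM factors set the trimmed mean of the ratios over transcripts to 1.

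Which way most transcripts moved in the pulldown depended on that choice. With TMM factors, 2002 of 10236 compared transcripts (19.6%) were called higher in IP and 4073 (39.8%) lower. With library totals, 4777 of 10461 (45.7%) were called higher and 2207 (21.1%) lower. The higher ones made up 33.0% of all called transcripts with TMM and 68.4% with library totals. Between these scalings every ratio of IP to input differs by a constant 2.98-fold, 1.58 on the log2 scale. The median log2 ratio of the 10236 transcripts was -0.59 with TMM and 0.99 with library totals, and 1.67 over the 10461 transcripts that reached the minimum level with library totals. Fewer cells of a type and less RNA per cell cannot be told apart in such tissue RNA, and neither scaling measures the amount of RNA recovered.

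Calls that held with both scalings were numerous in each direction. All 2002 transcripts called higher with TMM were also called higher with library totals, and 2207 transcripts were called lower with both. A further 2775 transcripts were called higher with library totals and not called with TMM, and 1866 were called lower with TMM and not called with library totals. No transcript was called in opposite directions by the 2 scalings. This nesting was fixed in advance, because library totals raise every ratio of IP to input by the same factor. That factor is also too small to turn a lower call into a higher one. The overlap between the scalings is therefore no support for the calls.

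**Figure D1:**
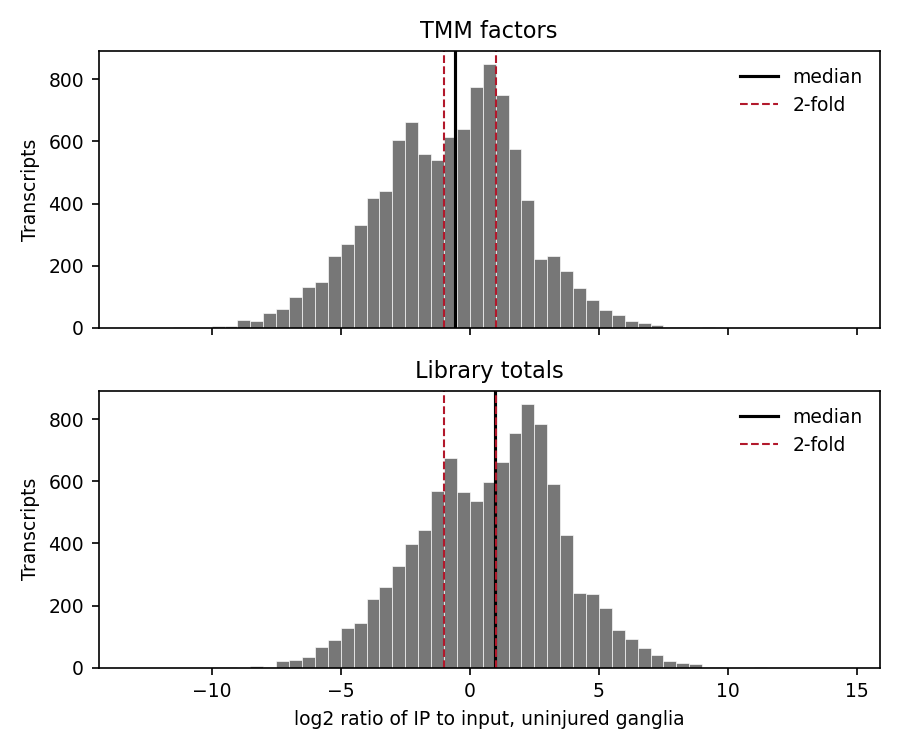
Histograms of the log2 ratio of IP to input for the 10236 transcripts compared with TMM factors (top) and the same transcripts with library totals (bottom). The y axes count transcripts, the black line is the median (-0.59 and 0.99) and the dashed lines mark 2-fold; the distribution keeps its form and moves by 1.58.

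Other scalings placed the centre between and beyond these values. DESeq2 size factors gave 33.7% higher among called transcripts, close to TMM. TMM factors taken only from the 1458 transcripts with at least 50 counts in both uninjured groups gave 22.9%. Upper-quartile factors gave an even split, with 3211 transcripts higher and 3074 lower. Library totals without the 2 leading IP transcripts gave 5639 higher and 1882 lower, and without the 10 leading ones 5769 and 1786, or 76.4% higher. Removing the leading transcripts thus moved the library-total ratios further from the TMM ratios, to a distance of 3.93-fold and 4.24-fold.

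Expressed as shares of the counts, the transcripts called with both scalings describe what the pulldown contained and what it left behind. The 2002 transcripts higher in IP held 54.5% of the IP counts and 2.48% of the input counts. The 2207 transcripts lower in IP held 6.88% of the IP counts and 77.9% of the input counts. The 1354 transcripts at least 16-fold lower with TMM accounted for 67.4% of the input and 3.97% of the IP. These transcripts were chosen by their ratio, so their shares describe the libraries and test nothing. The transcripts higher in IP had a median of 37 summed counts in IP and 23 in input. The lower ones had a median of 268 counts in input and 3 in IP. Because the IP was sequenced less deeply, IP counts and input counts are not on the same scale. These medians thus do not compare abundance between the sets.

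A pair of transcripts dominated the IP. The first had 26128.9, 26322.6 and 26026.4 counts in the 3 IP samples and 551, 334.5 and 826.9 in the 3 input samples. It made up 12.3% of the IP counts (exact 95% interval 12.3% to 12.4%) and 0.0339% of the input counts (0.0323% to 0.0355%). Its ratio of IP to input was 122 with TMM (117 to 128) and 364 with library totals. The second had 25215, 24998.3 and 25466.6 counts in IP and 663.1, 926.4 and 450.3 in input, and its ratio was 98.9 with TMM (94.7 to 103) and 295 with library totals. The IP samples of both lay far above the input samples without overlap. In input, the sample that was highest for the first transcript was lowest for the second, and the reverse, so the counting intervals do not cover the spread between input samples.

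Apart from this pair, the IP counts were spread over more transcripts than the input counts. The leading 100 transcripts of each fraction held 45.2% of the IP and 38.1% of the input, but the 100 that follow the leading pair held 27.8% of the remaining IP counts. For 1000 transcripts the values were 67.9% of the IP, 81.6% of the input and 57.7% of the IP without the pair. The IP, at 635927 summed counts, detected 18510 transcripts. Input counts thinned to that depth would be expected to show 17325, against 26980 at full depth.

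**Figure D2:**
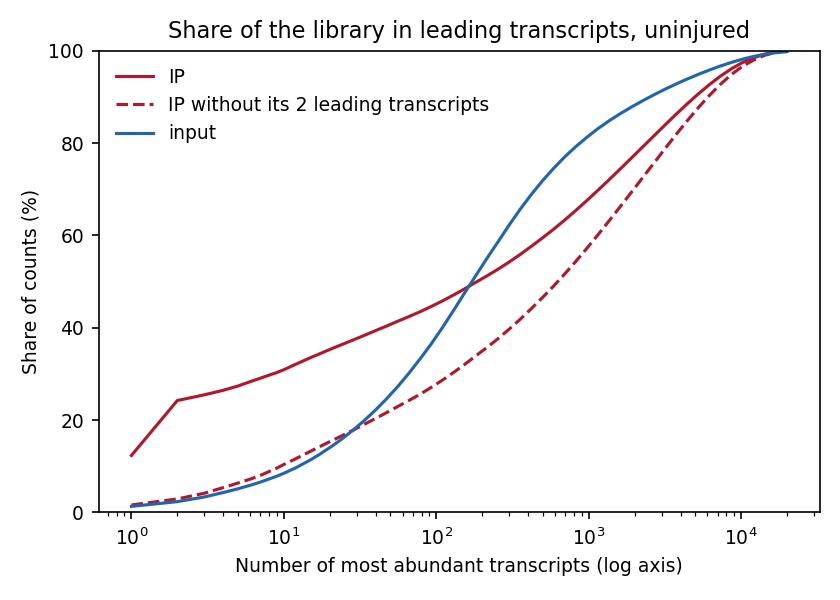
Share of all counts (y, %) held by the most abundant transcripts of each library, ranked within that library (x, log axis), for summed uninjured IP (solid red), IP without its 2 leading transcripts (dashed red) and input (blue). IP starts higher because 2 transcripts hold 24.2% of it, and falls below input by 1000 transcripts, at 67.9% against 81.6%.

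The transcripts that led the input were mostly lower in IP. Of the 100 most abundant input transcripts, 94 were called lower in IP with TMM and 0 higher, and with library totals 91 were lower and 2 higher. Together these 100 held 38.1% of the input and 7.65% of the IP. Of the 1000 most abundant input transcripts, 905 were lower with TMM and 23 higher, and with library totals 789 were lower and 67 higher. The background share of lower calls over all compared transcripts was 39.8% with TMM and 21.1% with library totals. Ranking by input level favours low ratios, so this is a description of the leading input transcripts, without a test.

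Ranking by IP level, which favours high ratios, gave a more mixed picture. Among the 100 leading IP transcripts, 54 were higher in IP with TMM, 19 lower and 27 were not called, where 19.6% of all compared transcripts were higher and 39.8% lower. With library totals 75 of the 100 were higher and 8 lower, where the shares over all were 45.7% and 21.1%. The 2 lists of 100 leading transcripts shared 17 entries, and the 2 lists of 1000 shared 310.

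Grouping by the geometric mean of the IP and input levels, which weights both fractions equally, gave the lowest median ratio to the most abundant transcripts. Of 294 transcripts at 300 CPM or more, 224 (76.2%) were lower in IP and 27 (9.18%) higher with TMM, against 39.8% and 19.6% of all compared transcripts, and their median log2 ratio was -4.00. The middle 50% of them ran from -5.48 to -1.34. With library totals 197 of these were lower and 54 higher, at a median of -2.43, so that lower transcripts outnumbered higher ones with both scalings. The 555 transcripts between 100 and 300 CPM had a median of -1.50 with TMM and 0.07 with library totals. Between 30 and 100 CPM (1914 transcripts) the TMM median was -0.18, and between 10 and 30 CPM (4038 transcripts) it was -0.01. These 2 classes, which hold most compared transcripts, were thus centred near equal levels with TMM and at 1.40 and 1.56 with library totals. The ratios did not follow abundance throughout, since the 3435 transcripts under 10 CPM had a TMM median of -2.09 and a library-total median of -0.51, with 50.4% lower and 17.8% higher with TMM. A transcript enters that class only if it reaches 10 CPM in 1 fraction, so its levels in the 2 fractions must differ.

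**Figure D3:**
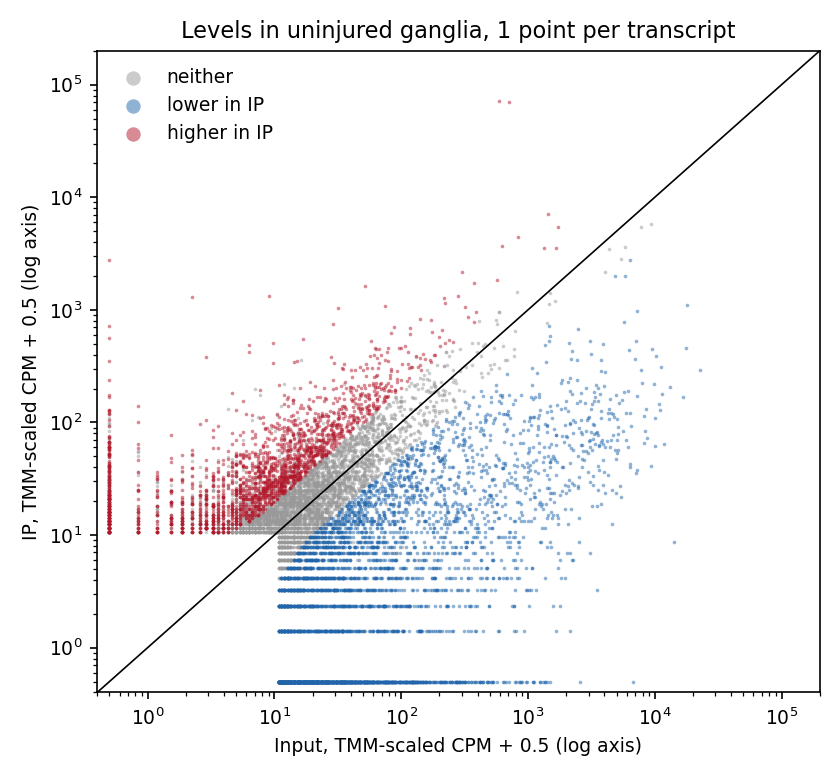
TMM-scaled level in IP (y) against input (x) for 10236 transcripts in uninjured ganglia, in CPM with 0.5 added, both axes log; red and blue points were called higher and lower in IP, grey ones neither. Points of 300 CPM or more lie mostly below the line of equal levels, and the empty corner at lower left is the minimum of 10 CPM.

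Levels in IP and input were only loosely related. Over the 1458 transcripts with at least 50 counts in both fractions, log2 counts correlated at 0.334 (Pearson) and 0.344 (Spearman). Over all 10236 compared transcripts, chosen for a minimum level in either fraction, the values were 0.107 and 0.085. These points share the 2 libraries and are not independent replicates. The spread of ratios between single samples was also taken within and between fractions. If the 3 samples of a fraction are portions of 1 library, the spread within it is technical alone and sets no scale for a difference between animals. The middle 50% of log2 ratios spanned 3.80 to 3.85 over the 9 pairs of an IP and an input sample, 0.80 to 0.83 over the 3 pairs of IP samples, and 0.57 to 0.58 over the 3 pairs of input samples. After centring on the median, which removes the scaling, 72.1% to 73.2% of 10236 transcripts differed at least 2-fold between an IP and an input sample. Between IP samples 23.2% to 26.1% did so, and between input samples 14.8% to 15.5%. For these ratios 1 count was added to each sample, which holds transcripts with few counts in a fraction near equal levels within it. Of the transcripts called lower, 1134 had 0 summed counts in IP and so add little to the spread between IP samples.

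The largest folds were those of transcripts present in 1 fraction and nearly absent from the other. ENSMUST00000196608.2 had 1067.3, 986.6 and 956.6 counts in the IP samples and 0 in each input sample. It ranked 15 among IP transcripts and was at least 2175-fold higher in IP with TMM and at least 6485-fold with library totals, by the lower 95% limit. Against a floor of 3 counts over the input group its folds were 2676 and 7979. ENSMUST00000109262.8 had 460.1, 463.6 and 505.2 counts in IP and 0, 4.9 and 0 in input. Its ratio was 762 with TMM (326 to 2351) and 2272 with library totals (971 to 7009). For both transcripts all 3 IP samples lay above all 3 input samples by a wide margin.

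In the other direction, ENSMUST00000177513.2 had 0 counts in each IP sample and 5918.9, 7071.3 and 6434.1 in input, where it ranked 33. It was at least 1975-fold lower in IP with TMM and at least 662-fold lower with library totals, by the lower 95% limit, and 2428-fold and 814-fold lower against the floor of 3 counts over the IP group. Its input samples differed beyond counting noise (chi-square p of 3.82e-23 on their counts, which compares these samples and not conditions). ENSMUST00000107684.2 had 1.4, 0 and 0 counts in IP and 2063.1, 2099.8 and 2035.4 in input. It was 2325-fold lower in IP with TMM (417 to 91830) and 780-fold lower with library totals (140 to 30797). Because its IP value rests on 1 summed count, the interval is wide. Its place among the largest folds rests on that count, which was not raised to the floor, and with a floor of 3 counts its folds would be 775 and 259.9. Whether reads of these 4 transcripts were assigned to another isoform in the other fraction was not tested.

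**Figure D4:**
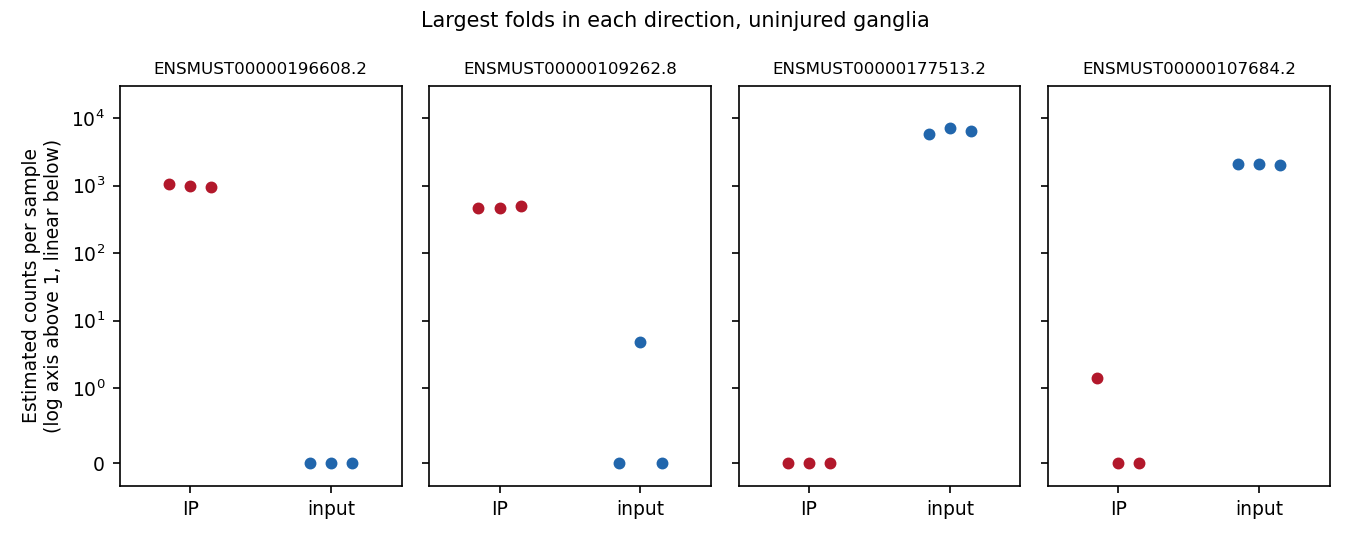
Estimated counts per sample (y, log axis above 1 and linear below) of the 2 transcripts with the largest folds in each direction, for the 3 IP (red) and 3 input (blue) samples of uninjured ganglia. Each point is 1 sample; the left pair reaches 460.1 to 1067.3 counts in IP and at most 4.9 in input, and the right pair at most 1.4 in IP and 2035.4 to 7071.3 in input.

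Some abundant input transcripts had no count in the IP. In all, 14866 transcripts were detected in both fractions, 12114 in input alone and 3644 in IP alone. Most of the latter were scarce, with medians of 3 counts in input alone and 2 in IP alone. Of 3442 transcripts with at least 100 input counts, 470 (13.7%) were found in input alone, and of 698 with at least 1000, 46 (6.59%). A count of 0 in the summed IP allows up to 4.72 CPM of library totals, and in the summed input up to 0.593 CPM, both for counting error only. Of 805 transcripts with at least 100 counts in IP, 19 (2.36%) had 0 in input. The same count stands for a higher level in the IP, which was sequenced less deeply. The shares of the 2 fractions are therefore not comparable.

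The injured ganglia gave separate IP and input libraries in which the same ratios were taken. There, with TMM factors, 1649 of 9718 compared transcripts (17.0%) were higher in IP and 3786 (39.0%) lower, and with library totals 5118 of 10568 (48.4%) were higher and 1830 (17.3%) lower. Log2 ratios of the 8463 transcripts compared in both conditions correlated at 0.885 (Pearson) and 0.890 (Spearman), as a description across transcripts that share the same libraries. Of the transcripts higher in uninjured IP and compared in both, 980 of 1586 (61.8%) were also higher in injured IP, and these were 69.0% of the 1421 higher there. For lower transcripts the overlap was 2985, which is 82.8% of 3603 in uninjured and 87.5% of 3412 in injured ganglia. The sign of the ratio was the same in both conditions for 1502 higher transcripts (94.7% of 1586) and 3518 lower ones (97.6% of 3603).

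How often a call recurred varied with its size. Of those 2-fold to 4-fold lower in uninjured IP, 57.2% of 720 were also lower in injured IP. This share was 83.2% of 1552 from 4-fold to 16-fold, 95.5% of 931 from 16-fold to 64-fold, and 98.2% of 400 from 64-fold on. For higher transcripts the corresponding shares were 50.2% of 855, 77.0% of 596, 67.3% of 104 and 71.0% of 31. A call needs at least 2-fold, so transcripts from 2-fold to 4-fold lie nearest that cutoff and lose a call most easily. In that class 673 of the 720 lower and 788 of the 855 higher transcripts kept the sign of their ratio. The 4 named transcripts kept their direction. ENSMUST00000196608.2 had 7693 summed counts in injured IP and 2 in injured input, and ENSMUST00000109262.8 had 5787 and 0. ENSMUST00000177513.2 had 3 and 22723, and ENSMUST00000107684.2 had 16 and 4218, a 104-fold difference (63.8 to 182).

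Transcripts found in 1 fraction alone were followed in the injured libraries as well. Of the 46 with at least 1000 counts in input and 0 in IP, 45 were compared there, 42 were also lower in injured IP (39.0% of all compared were lower) and 17 had 0 counts in it too. The input samples of 35 of the 46 agreed within counting noise. Of the 19 with at least 100 counts in IP and 0 in input, 14 were compared in injured ganglia, where 6 were higher in IP (17.0% of all compared were higher) and 0 lower. In the injured libraries 12 of the 19 had 0 counts in input, 2 had at least 100 counts in input and 5 had 0 counts in IP. The difference between these 2 sets was not tested. The IP samples of 10 of the 19 agreed within counting noise. Over all transcripts with a mean of at least 10 counts, which include less abundant ones, 10.6% in IP and 13.5% in input did not agree.

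**Figure D5:**
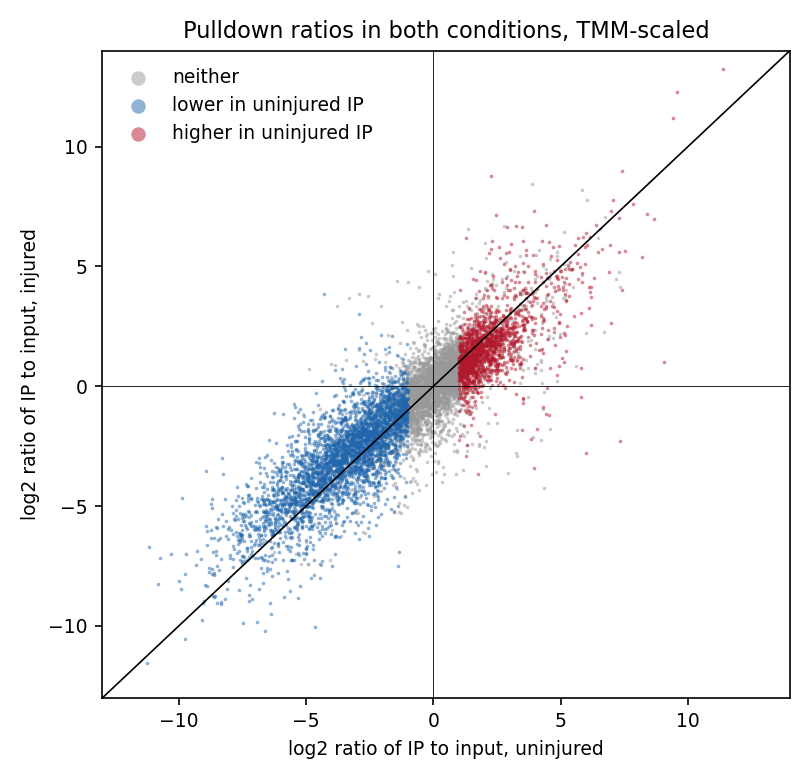
Log2 ratio of IP to input in injured (y) against uninjured ganglia (x), TMM-scaled, for the 8463 transcripts compared in both; colours give the call in uninjured ganglia and the diagonal marks equal ratios. The points follow the diagonal (Pearson r 0.885), and the ratio had the same sign in both conditions for 97.6% of the transcripts lower and 94.7% of those higher in uninjured IP.

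The labels list the 3 samples of a group separately, so tests that take them as replicates were also made. edgeR's quasi-likelihood test with TMM factors called 1771 of 7664 tested transcripts higher in IP and 2859 lower, at a Benjamini-Hochberg adjusted p under 0.05 and at least 2-fold. With the replicate number as a block, the counts were 1505 and 2682. DESeq2 called 1542 higher and 2894 lower. If the 3 samples are portions of 1 library, these tests measure only technical spread.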

How the data were processed

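RNA of 3 uninjured IP and 3 uninjured input samples was compared. The table deposited by the authors holds estimated counts per transcript, not normalized. Over all 101744 listed transcript IDs, 3.39% to 11.4% of the values per sample were not whole. Transcripts without a count in a sample are included there as whole. Of the 10236 transcripts compared with TMM factors, 9016 had a non-whole count in at least 1 of the 6 samples. Per the submitters' processing notes, minimap2, Salmon and the builds GRCm39 and mm39 were used, with no version or annotation stated. The members and lists were chosen with earlier results of these data known.

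Counts of the 3 samples of a group were summed and rounded to whole numbers. TMM factors came from edgeR 4.0.16 (R 4.3.3), over the sums of all 4 groups for 9959 transcripts passing filterByExpr. Each ratio has a 95% Clopper-Pearson interval conditional on the 2 groups' joint count (scipy 1.17.1). Where a group had 0 counts, a floor of 3 counts over the group was used. Samples were said to agree within counting noise at a chi-square p above 0.01. DESeq2 1.42.0 and edgeR gave the tests with replicates. Named transcripts are the 2 largest called folds per direction with at least 50 summed counts in the higher group, and the leading pair was picked with its values in view. The plan for sums per gene and for cell type lists was dropped because the IDs have no gene names here.

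Deviations from the group means of same-numbered IP and input samples correlated across 358 transcripts at r of 0.295, 0.202 and 0.110, and those of differently numbered ones at -0.240 to 0.0981. The smallest same-number value thus lay close to the largest value of differently numbered samples. The reported ratios did not use the numbers as pairs, whereas the edgeR test with the replicate block did. Whether same-numbered samples are pairs was not settled, and the labels do not say what they share.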

Additional observations from a re-analysis of the deposited data

Results flagged for a closer look

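Of the 5189 transcripts called in uninjured ganglia and compared in injured ones, 76.4% had the same call in both. In 21 of the 5189 the ratio of IP to input had opposite calls, with every IP sample on one side of every input sample in each condition. Of the 21, 12 were higher in IP without injury and lower in IP with injury, and 9 went the other way. The difference between conditions was not tested. The samples of 15 of the 21 agreed within counting noise in all 4 groups. With library totals, 7 went the first way and 16 the second, among 6090 transcripts called in uninjured and compared in injured ganglia.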

How the results depend on the processing

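Alternatives added after seeing the data were upper-quartile factors, TMM from transcripts with 50 or more counts, library totals without leading transcripts, whole counts alone, and edgeR with library totals. Library totals gave 4777 transcripts higher and 2207 lower, a median log2 ratio of 1.67 and 81.6% of calls repeated in injured ganglia (76.4% with TMM). Without the 2 leading IP transcripts, library totals gave 5639, 1882 and 2.14, and without the 10 leading ones 5769, 1786 and 2.24. Upper-quartile factors gave 3211 higher and a median of 0.51, and TMM from transcripts with 50 or more counts a median of -1.21. With no minimum level the median was 0.54, over 30624 transcripts. That median depends on the floor. The 12114 transcripts found in input alone had a median of 3 counts, worth 1.03 CPM with TMM. Their 0 in IP was set to 3 counts, worth 2.75 CPM, so the scarce ones took a ratio above 1 without a count in IP. A minimum of 50 CPM left 3350 transcripts, with 2653 called, 716 higher, 1937 lower and a median of -2.09. A 4-fold threshold left 1019 higher. Transcripts with whole counts in all 6 samples gave 634 called, 479 higher, 155 lower and a median of 1.15, and their median input count was 25 against 68 for the others. With the samples as replicates, the median was -0.24 in edgeR, -0.25 with the replicate block (2682 lower), -0.34 in DESeq2, and 1.28 in edgeR with library totals (3831 higher and 1953 lower). Leaving out 1 sample number gave 6313 to 6349 called transcripts (6075 reported), 2101 to 2167 higher, 4146 to 4238 lower and medians of -0.64 to -0.70. The clause on overlap is easier to meet with fewer samples. Scalings other than these, and restriction to transcripts whose samples agreed (1743 higher, 3580 lower), kept each count within 1.5 times. Sums per gene and cell type lists were not run. Depth limits mainly the IP, where 3 summed counts are worth 2.75 CPM with TMM.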

Other observations

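Transcripts with whole estimated counts in all 6 samples and those with a non-whole count differed in their split, with 75.6% and 28.0% higher in IP among called ones. Their input levels differed as well. Among transcripts with 30 to under 100 input counts, 79 were higher and 152 lower of 527 with whole counts, and 541 were higher and 1554 lower of 4080 others, 34.2% and 25.8% higher among called ones. Median input counts in that class were 39 and 51, so the levels were not fully matched. Under 30 input counts, 0 transcripts of either set were called lower, which the minimum of 10 CPM fixes in advance.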
